A study of Bos taurus with 9 samples.

Results

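Compaction turns a loose ball of blastomeres into a sealed, polarised morula, and 10 genes of its adhesion and polarity machinery are described here in cloned bovine embryos. The genes were taken by symbol as a fixed set: CDH1, CTNNB1, CTNNA1, CTNND1, PRKCI, PRKCZ, PARD3, PARD6B, EZR and SCRIB. Each had a single row, among 16129 genes listed in all 9 files. RNA was sequenced from 3 groups of 3 libraries, all of cattle (Bos taurus) embryos cloned by somatic cell nuclear transfer, the placing of a body cell nucleus in an enucleated oocyte. Per the labels, the breed is Holstein in all groups, and the protocols describe donor cells from the fibroblasts of 1 Holstein fetus. Both morula groups, control and KDM6A, were harvested at day 5 and pooled by 5. KDM6A morulae grew from embryos injected 1 h after activation with mRNA for wild-type bovine KDM6A, a demethylase that removes the repressive H3K27 methyl mark. Control morulae were not injected at all, so the act of injection and the KDM6A mRNA cannot be told apart. The 8-cell embryos, also labelled control, were taken from an earlier series, and wherever they are compared, the effect of stage and that of the source cannot be told apart. The number of embryos per 8-cell library and their day are not given. Nothing in the labels ties the libraries to separate oocyte batches. A p-value here thus reflects only how much these libraries vary, part of which may be technical.

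E-cadherin, the product of CDH1, joins neighbouring blastomeres. Its tail binds beta-catenin (CTNNB1) and p120-catenin (CTNND1), and alpha-catenin (CTNNA1) links beta-catenin to actin. The atypical protein kinases C (PRKCI and PRKCZ) act with the scaffolds PAR3 (PARD3) and PAR6 (PARD6B) at the apical side, where ezrin (EZR) ties the membrane to the actin cortex. Scribble (SCRIB) belongs to the opposing basolateral module.

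Values are FPKM, a fragment number corrected for transcript length and library size, so levels can be set beside each other between genes per length. They are shares of a bulk pool, in which fewer cells of a type and less RNA per cell cannot be told apart. Depth is unknown. Genes at 1 FPKM or more numbered 8923 to 9167 per 8-cell library and 9471 to 9757 per morula library, without overlap. KDM6A itself stood at 10.72, 13.86 and 10.74 FPKM in control morulae and at 35.65, 87.58 and 79.44 in KDM6A morulae, so the first injected pool carried the least. The 6 embryo markers summed to 74.1 to 130 FPKM in 8-cell embryos, 293 to 325 in control morulae and 156 to 362 in KDM6A morulae, and none was at 0 throughout a group. Most of the 8-cell sum was NANOG, at 107.28, 59.04 and 94.11 FPKM. Its mean was lower in both morula groups, while the means of the other embryo markers were higher. The 8 oocyte and maternal markers summed to 3711 to 9026, 20.1 to 448 and 108 to 188 FPKM, again with none at 0 throughout a group, and the first control pool had the highest morula sum. BTG4 alone was 3360, 8658 and 5716 FPKM of the 8-cell sums. The 7 cumulus markers with a row summed to at most 26.0 FPKM, with PTX3 and CYP11A1 at 0 in all 8-cell libraries. The 10 donor fibroblast markers summed to 27.8 to 76.5 FPKM over all libraries, and none was at 0 throughout a group. The highest sum was that of 8-cell replicate 2, against 29.4 and 38.4 FPKM in the other 8-cell libraries. LUM was at 29.11 FPKM there, against 2.21 and 5.59. The part of these differences in the results below was not tested.

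**Figure D1:**
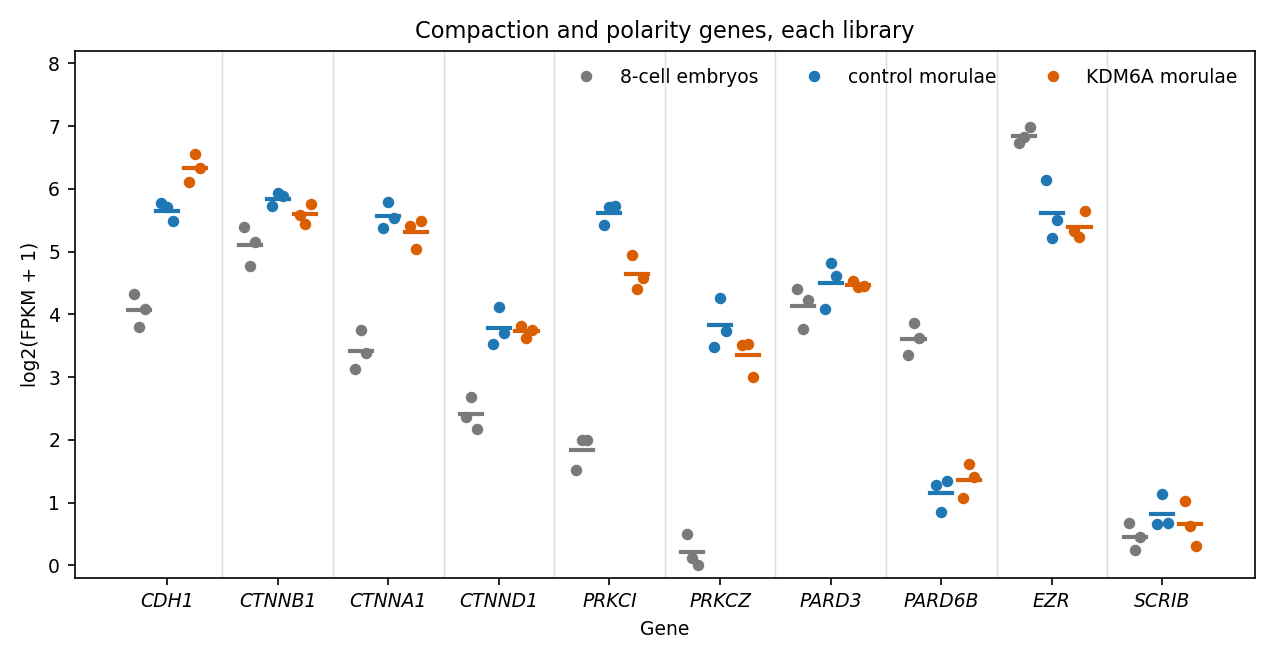
Level of each of the 10 genes on a log2(FPKM + 1) axis, with 1 point per library, the 3 groups side by side and a horizontal bar at each group mean. PRKCI and PRKCZ are near the bottom in 8-cell embryos and well above in both morula groups, PARD6B runs the other way, and PARD3 overlaps between control morulae and 8-cell embryos.

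From the 8-cell stage to the control morula, adhesion transcripts and both atypical kinases rose, while PARD6B and EZR fell. The test took genes with 1 FPKM or more in 3 or more of 6 libraries, which 9 members met, and of these 6 rose and 2 fell (limma on log2(FPKM + 1), Benjamini-Hochberg adjusted p under 0.05). Of the 6, PRKCZ met this filter through its morula libraries alone. This stage contrast is broad: 69.8% of the 10048 genes tested were called, 42.7% higher and 27.1% lower. The share of members called is therefore not set apart from the background. Groups did not overlap for 8 members, against 74.5% of all genes tested. The median log2 fold change was 1.38 for the members and 0.35 for all genes tested. Median-of-ratios scaling lowered the all-gene median to 0.11 and that of the members to 1.13. Quantile normalization lowered them to 0.069 and 1.04.

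Among the adhesion genes, CDH1 stood at 19.08, 12.85 and 15.9 FPKM in 8-cell embryos, at 53.56, 51.1 and 43.72 in control morulae and at 67.94, 93.4 and 79.38 in KDM6A morulae. The 3 groups form a ladder without overlap, with every KDM6A pool above every control pool. CDH1 rose 3.10-fold in control morulae, from 15.9 ± 3.12 to 49.5 ± 5.12 FPKM (SD, n = 3), a log2 change of 1.59 (SE 0.214, limma adjusted p = 0.000123). In KDM6A morulae it reached 80.2 ± 12.8 FPKM, 5.03-fold above the 8-cell level, with a log2 change of 2.27 (SE 0.233, limma adjusted p = 1.55e-05). The mean of CDH1 went from percentile 77.5 of all genes in 8-cell embryos to 87.4 in control and 91.1 in KDM6A morulae.

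CTNNA1, which couples the cadherin complex to actin, made the largest rise of the 3 catenins. It stood at 7.74, 12.5 and 9.43 FPKM in 8-cell embryos, at 40.33, 54.56 and 45.36 in control morulae and at 41.59, 32.01 and 43.94 in KDM6A morulae. All 6 morula pools were above every 8-cell library, and the morula groups overlapped. The rise in control morulae was 4.73-fold, from 9.89 ± 2.41 to 46.75 ± 7.22 FPKM (n = 3 each), with a log2 change of 2.14 (SE 0.234, limma adjusted p = 3.52e-05).

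CTNND1, whose product holds cadherin at the surface, was the lowest of the 3 catenins in every group. It stood at 4.12, 5.44 and 3.51 FPKM in 8-cell embryos, at 10.57, 16.32 and 12.03 in control morulae and at 13.09, 11.36 and 12.43 in KDM6A morulae. The 8-cell values again lay below all morula values. CTNND1 rose 2.98-fold in control morulae, with a log2 change of 1.38 (SE 0.258, limma adjusted p = 0.000921).

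CTNNB1, which serves both cadherin and Wnt signalling, was already high at the 8-cell stage and moved least of the catenins. It stood at 41.02, 26.24 and 34.48 FPKM in 8-cell embryos, at 51.64, 59.79 and 58.07 in control morulae and at 47.09, 42.28 and 53.05 in KDM6A morulae. Its rise in control morulae was 1.67-fold, with a log2 change of 0.74 (SE 0.212, limma adjusted p = 0.0105). That call was lost under median-of-ratios scaling, where the change was 0.47 (adjusted p = 0.0616). KDM6A morulae also lay above 8-cell embryos without overlap, but the log2 difference of 0.49 (95% interval -0.02 to 1.00) did not pass, with a limma adjusted p of 0.0821. It passed in 1 fit of all 9 libraries (adjusted p = 0.0460) and without 8-cell replicate 1, at 0.63 (adjusted p = 0.0384).

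Both atypical kinase C genes rose steeply, PRKCI from a low level and PRKCZ from near 0. PRKCI stood at 1.88, 2.98 and 2.98 FPKM in 8-cell embryos, at 41.88, 51.37 and 51.84 in control morulae and at 29.96, 20.05 and 22.97 in KDM6A morulae. The 3 groups did not overlap, with KDM6A morulae in the middle. PRKCI rose 18.5-fold in control morulae, from 2.61 ± 0.635 to 48.4 ± 5.62 FPKM (n = 3 each), a log2 change of 3.78 (SE 0.234, limma adjusted p = 1.77e-06). In KDM6A morulae the rise was 9.31-fold, with a log2 change of 2.81 (SE 0.272, limma adjusted p = 1.05e-05). On the log2(FPKM + 1) scale PRKCI had the widest range of group means of the 10 genes, an order that turns to PRKCZ with a pseudocount of 0.1.

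PRKCZ, the second atypical kinase, was listed at 0.42, 0.08 and 0 FPKM in 8-cell embryos. It stood at 10.19, 18.07 and 12.34 FPKM in control morulae and at 10.4, 10.55 and 6.99 in KDM6A morulae. Every morula pool was above every 8-cell library, and the morula groups overlapped. On the log2(FPKM + 1) scale the difference between control morulae and 8-cell embryos was 3.62 (SE 0.275, limma adjusted p = 4.84e-06), and with a pseudocount of 0.1 it was 5.97. PRKCZ met the filter only through the morula libraries, where it is high, so this call is a description and not separate support. No ratio is given because 1 of the 8-cell libraries is at 0.

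The 2 PAR scaffolds did not move with their kinases. PARD6B, which tethers atypical kinase C to CDC42, stood at 9.2, 13.52 and 11.32 FPKM in 8-cell embryos, at 1.42, 0.8 and 1.54 in control morulae and at 1.1, 2.06 and 1.65 in KDM6A morulae. No morula pool came near the lowest 8-cell library. PARD6B fell 9.05-fold in control morulae, from 11.3 ± 2.16 to 1.25 ± 0.397 FPKM (n = 3 each), a log2 change of -2.46 (SE 0.256, limma adjusted p = 2.66e-05). In KDM6A morulae it was 7.08-fold below the 8-cell level, at a log2 change of -2.25, also called.

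PARD3, the scaffold that recruits the kinase complex, was not called in any comparison. It stood at 20.22, 12.55 and 17.67 FPKM in 8-cell embryos, at 15.96, 27.35 and 23.31 in control morulae and at 22.17, 20.69 and 20.76 in KDM6A morulae. The 8-cell and control values overlapped, while the KDM6A pools lay just above the highest 8-cell library. Its log2 difference between control morulae and 8-cell embryos was 0.37, with a 95% interval of -0.22 to 0.97 (limma adjusted p = 0.232). Between KDM6A morulae and 8-cell embryos it was 0.34 (limma adjusted p = 0.235).

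EZR, the apical membrane-to-actin linker, was the highest of the 10 transcripts in 8-cell embryos and fell in both morula groups. It stood at 104.62, 112.86 and 124.97 FPKM in 8-cell embryos, at 69.35, 36.17 and 44.25 in control morulae and at 38.98, 36.48 and 49 in KDM6A morulae. The first control pool was well above the other 5 morula pools. EZR fell 2.29-fold in control morulae, from 114 ± 10.2 to 49.9 ± 17.3 FPKM (n = 3 each), a log2 change of -1.23 (SE 0.244, limma adjusted p = 0.00134). In KDM6A morulae it was 2.75-fold below the 8-cell level, with a log2 change of -1.45 (SE 0.204, limma adjusted p = 0.000119). The first control pool also had the highest oocyte and maternal sum of the morula pools, at 448 FPKM against 20.1 and 113 in the other controls. BTG4 was 374 FPKM of that 448, and the other markers of that list were also highest there among the morula pools. Without that pool the fall from 8-cell embryos was -1.49 and still called.

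SCRIB, the basolateral scaffold, was too low to test. It was listed at 0.59, 0.18 and 0.36 FPKM in 8-cell embryos, at 0.58, 1.19 and 0.59 in control morulae and at 1.04, 0.55 and 0.24 in KDM6A morulae. Only 1 pool in each morula group reached 1 FPKM, and the groups overlapped.

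**Figure D2:**
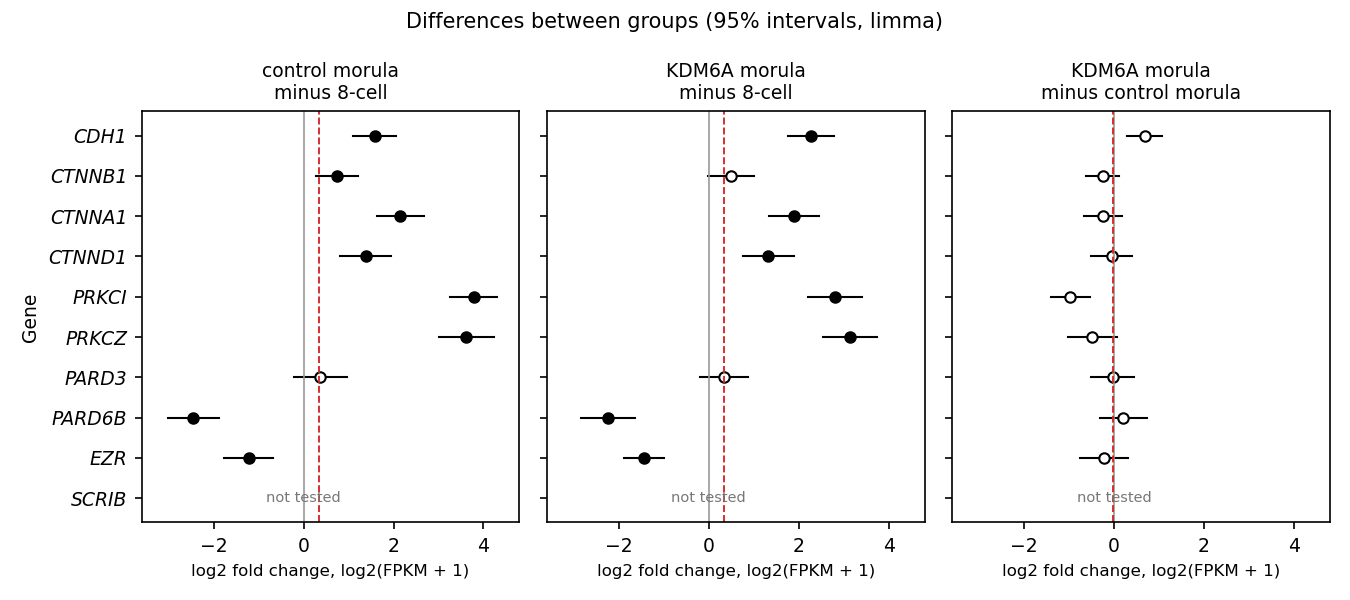
Log2 fold change of each gene on the log2(FPKM + 1) scale with its 95% interval, in 3 panels for control morulae minus 8-cell embryos, KDM6A morulae minus 8-cell embryos and KDM6A minus control morulae. Filled points passed an adjusted p of 0.05, the dashed line is the median of all genes tested, and SCRIB was not tested. The stage panels hold 8 and 7 filled points, and the injection panel holds none, with CDH1 at 0.68 and PRKCI at -0.98 farthest from 0.

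KDM6A morulae were set against the same 8-cell libraries, so this comparison is not independent of the one with control morulae. Of 9 members tested, 5 rose (CDH1, CTNNA1, CTNND1, PRKCI and PRKCZ) and 2 fell (PARD6B and EZR). Here too PRKCZ met the filter through its morula libraries alone. Over all 10024 genes tested, 66.7% were called, 41.1% higher and 25.6% lower. All 9 tested members had groups without overlap, against 71.3% of all genes. The median log2 fold change was 1.33 for members and 0.34 for all genes tested. For CTNNA1, CTNND1 and PRKCZ the values were 1.89, 1.33 and 3.14, beside 2.14, 1.38 and 3.62 in control morulae.

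The ranking of the set changed with stage. In 8-cell embryos EZR came first and CTNNB1 second, each clear of the next gene, and PARD3, CDH1, PARD6B and CTNNA1 followed with overlapping ranges. CTNND1 and PRKCI came next, each apart from its neighbours, and SCRIB and PRKCZ were last with overlapping ranges. In control morulae CTNNB1, EZR, CDH1, PRKCI and CTNNA1 formed a top tier with means of 46.75 to 56.5 FPKM, in which each gene overlapped its neighbour. PARD3, PRKCZ and CTNND1 made an overlapping middle tier, and PARD6B and SCRIB an overlapping bottom one. In KDM6A morulae CDH1 stood alone at the top, clear of CTNNB1, EZR and CTNNA1, whose ranges overlapped in that order. PRKCI and PARD3 overlapped below them, and CTNND1, PRKCZ, PARD6B and SCRIB followed with no overlap between neighbours.

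The injection comparison sets KDM6A morulae beside control morulae that were not injected, so it cannot separate KDM6A mRNA from the act of injection. No member was called in either direction among the 9 tested, where 0.164% of 9777 genes were called (12 or 0.123% higher and 4 or 0.0409% lower) and 12.7% had an unadjusted p under 0.05. Of the members, 2 had an unadjusted p under 0.05, and the same 2 had groups without overlap, against 15.7% of all genes tested. They were CDH1 and PRKCI, in opposite directions. The median log2 difference over members was -0.22, beside -0.012 for all genes tested.

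CDH1 was 1.62-fold higher in KDM6A than in control morulae, a log2 difference of 0.68 (SE 0.177, 95% interval 0.29 to 1.07). Its limma p was 0.00289 before adjustment and 0.211 after it, so it did not pass. PRKCI was 1.99-fold lower, at 24.3 ± 5.09 against 48.4 ± 5.62 FPKM (n = 3 each), a log2 difference of -0.98 (SE 0.198, 95% interval -1.41 to -0.54). Its limma p was 0.000484 before adjustment and 0.0870 after it. The first KDM6A pool, which carried the least KDM6A transcript, had the lowest CDH1 (67.94 FPKM) and the highest PRKCI (29.96 FPKM) of the 3 injected pools. It also had the highest sum of the 6 embryo markers, at 362 FPKM against 232 and 156, and the part of these differences in the CDH1 and PRKCI values was not tested. Without that pool CDH1 was called higher at 0.79 (SE 0.173, limma adjusted p = 0.0265) and PRKCI lower at -1.13 (SE 0.182, limma adjusted p = 0.00952). Calls over all genes then rose to 380 higher and 365 lower, 7.62% of genes tested. Over all alternatives tried, adjusted p ran from 0.0265 to 0.784 for CDH1 and from 0.00952 to 0.474 for PRKCI, and each was called in that 1 setting only.

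The other tested members differed little between the morula groups relative to their spread. PRKCZ was at -0.48 on the log2 scale (95% interval -1.03 to 0.08, limma adjusted p = 0.443). CTNNB1 and CTNNA1 were both at -0.25, with 95% intervals of -0.62 to 0.12 and -0.68 to 0.17 (limma adjusted p = 0.547 and 0.601). These intervals still allow falls of some size, so equality of the groups is not shown. EZR was at -0.22 and PARD6B at 0.21 (limma adjusted p = 0.732 and 0.745), while CTNND1 was at -0.053 and PARD3 at -0.032 (limma adjusted p = 0.932 and 0.960). The sign of CTNND1, PARD3 and EZR reversed under other scalings or with a control pool left out, so no direction can be read for them.

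Ratios of deposited FPKM within a library do not change when a library is multiplied by a single factor. At the 8-cell stage CTNNB1 exceeded CDH1, with log2 ratios of 1.10, 1.03 and 1.12. In control morulae the pair were near parity, at -0.053, 0.23 and 0.41, and in KDM6A morulae CTNNB1 was below CDH1, at -0.53, -1.14 and -0.58. The 3 groups therefore form a descending series with no overlap. CTNNA1 over CDH1 was -0.70 ± 0.633 in 8-cell embryos, -0.087 ± 0.280 in control morulae and -1.04 ± 0.447 in KDM6A morulae (n = 3 each). CTNND1 over CDH1 was -1.88 ± 0.552, -1.95 ± 0.356 and -2.70 ± 0.332 in the same order. All 3 catenins were thus lower against CDH1 in KDM6A than in control morulae with no overlap, by 0.95, 0.95 and 0.75 log2 units. All 3 ratios share CDH1, so they are not independent. On the log2(FPKM + 1) scale CDH1 itself differed by 0.68 and was not called. CTNNB1, CTNNA1 and CTNND1 differed by -0.25, -0.25 and -0.053, with overlapping groups. The lower ratios thus largely restate the CDH1 difference and do not show a shared fall of the catenins. Each of these gave an exact two-sided permutation p of 0.1, the smallest that 3 libraries against 3 allow, and 0.15 after adjustment over the 33 tests of ratios and shares. None of those 33 tests could pass a threshold of 0.05 in this design.

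The close relatives of each gene show which paralog supplied the transcript pool. CTNNA1 made up 14.3%, 18.4% and 12.9% of the summed FPKM of CTNNA1, CTNNA2 and CTNNA3 in 8-cell embryos, 53.0%, 60.2% and 56.0% in control morulae and 56.2%, 54.3% and 66.0% in KDM6A morulae. By these values CTNNA3 was the higher of the pair at the 8-cell stage and CTNNA1 in the morula, although how the authors divided reads between paralogs is unknown here. CTNNA2 was at most 0.27 FPKM in any library. CTNNA3, the form best known from heart and testis, was at 55.0 ± 8.63 FPKM in 8-cell embryos and fell to 35.8 ± 0.221 in control morulae (n = 3 each), a log2 change of -0.60 (limma adjusted p = 0.0183). In KDM6A morulae it was 27.3 ± 4.90 FPKM, below the controls without overlap but not called, at -0.39 (limma adjusted p = 0.402).

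The ezrin family also differed in makeup between stages. EZR was 56.1% ± 2.90 of the summed EZR, MSN and RDX in 8-cell embryos, 35.2% ± 8.07 in control morulae and 31.1% ± 3.12 in KDM6A morulae (n = 3 each). MSN, coding for moesin, rose from 2.08 ± 1.80 FPKM in 8-cell embryos to 44.8 ± 2.52 in control morulae, a log2 change of 4.04 (SE 0.353, limma adjusted p = 1.02e-05). RDX, coding for radixin, fell from 88.2 ± 19.0 to 44.8 ± 2.28 FPKM, at -0.94 (limma adjusted p = 0.00243). In control morulae the 3 linkers were therefore at like levels, where the 8-cell pool was mostly EZR and RDX.

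The sums of the PAR6 and of the kinase transcripts ran in opposite directions. PARD6B held 96.7% ± 3.25 of the summed PARD6A, PARD6B and PARD6G in 8-cell embryos, 54.5% ± 13.2 in control morulae and 60.5% ± 5.32 in KDM6A morulae. PARD6A was at 0.37 ± 0.332 FPKM in 8-cell embryos and 1.01 ± 0.195 in control morulae, without overlap, so the lower sum in morulae came from PARD6B. PARD6G was at most 0.06 FPKM in any library. The summed PAR6 transcripts were 11.7 ± 2.10 FPKM in 8-cell embryos, 2.27 ± 0.225 in control morulae and 2.63 ± 0.676 in KDM6A morulae. The summed atypical kinases ran the other way, at 2.78 ± 0.418, 61.9 ± 8.91 and 33.6 ± 5.83 FPKM (n = 3 each), of which PRKCI held 93.0% ± 9.88, 78.4% ± 3.83 and 72.1% ± 5.86.

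Of CDH1, CDH2 and CDH3, the classical cadherins examined, CDH1 was dominant throughout. It held 87.3% ± 4.01 of their summed FPKM in 8-cell embryos, 98.0% ± 0.160 in control morulae and 99.2% ± 0.447 in KDM6A morulae. CTNNB1 held 95.4% ± 2.07, 87.6% ± 1.17 and 86.8% ± 4.45 of its sum with JUP, which codes for plakoglobin and can replace beta-catenin at junctions. JUP rose from 1.56 ± 0.398 to 7.96 ± 0.252 FPKM in control morulae, a log2 change of 1.82 (limma adjusted p = 8.36e-05). CTNND1 held 38.3% ± 4.43, 72.2% ± 2.84 and 75.6% ± 4.97 of its sum with CTNND2, ARVCF and PKP4. The main alternative, PKP4, was at 7.17 ± 3.13, 4.87 ± 0.650 and 3.90 ± 1.12 FPKM and was not called in either stage comparison on FPKM as deposited. It was called lower against 8-cell embryos under quantile normalization in control morulae (limma adjusted p = 0.0388), and in KDM6A morulae under all 3 other scalings (0.0124 to 0.0443). SCRIB was a minor part of its sum with ERBIN and LRRC1, at 2.89% ± 1.58, 7.10% ± 3.11 and 6.77% ± 4.64. All 8 shares differed between control morulae and 8-cell embryos without overlap (exact two-sided permutation p = 0.1 each, adjusted 0.15), in a contrast where 74.5% of single genes did not overlap and no such background was computed for shares, and 1 of 8, the CDH1 share, did so between the morula groups.

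**Figure D3:**
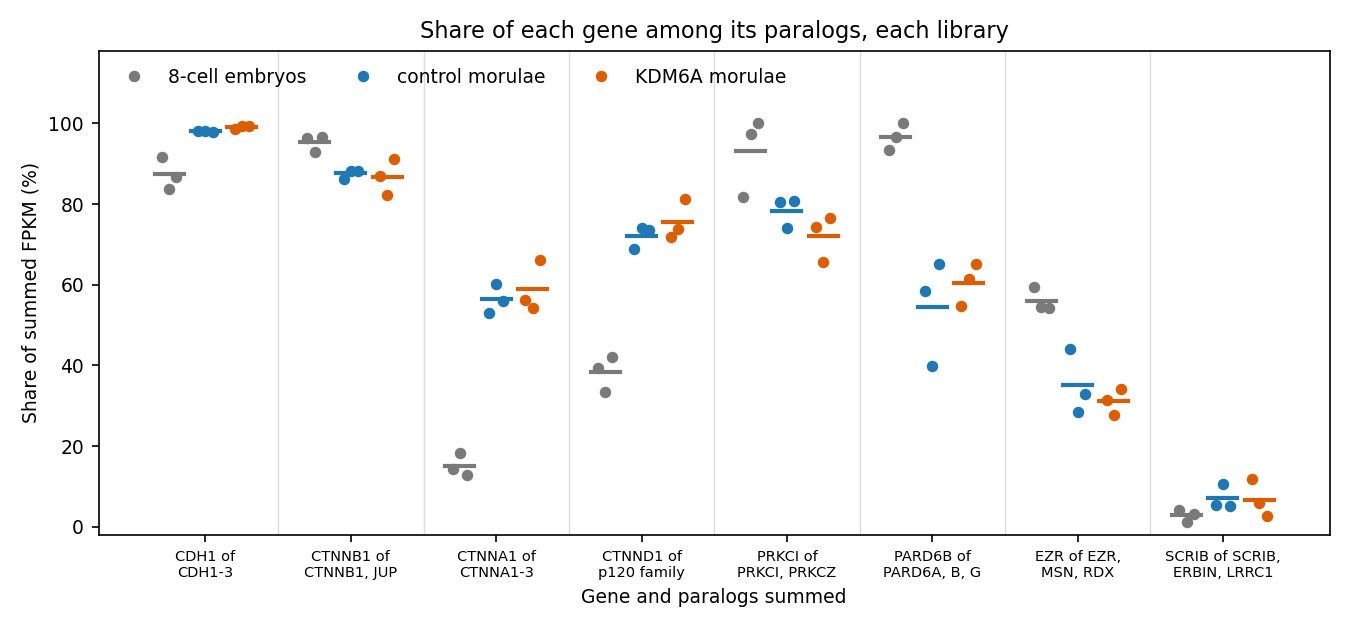
Share of each gene in the summed FPKM of its paralogs, in percent, with 1 point per library in the 3 groups. The CTNNA1 and CTNND1 shares are higher in both morula groups than in 8-cell embryos, while those of PARD6B and EZR are lower. The morula groups overlap for every gene except CDH1.

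Genes of the 4 wider lists were called about as often between control morulae and 8-cell embryos as all genes tested, of which 69.8% were called, 42.7% higher and 27.1% lower, so nothing particular to the junction, polarity, apical cortex or actomyosin list is read from its counts. Of 20 junction genes listed, 16 were tested, 7 rose and 3 fell, with a median log2 change of 0.53 beside 0.35 for all genes. The split was 6 and 3 after rescaling to TPM or by median-of-ratios and 6 and 4 under quantile normalization. AFDN, coding for the nectin-actin linker afadin, rose from 4.48 ± 0.0625 to 51.2 ± 15.2 FPKM (n = 3 each), a log2 change of 3.21 (limma adjusted p = 6.42e-06). ACTN4, an actin cross-linker, rose from 0.2 ± 0.0625 to 1.92 ± 0.147 FPKM (1.28, limma adjusted p = 0.000188). It met the filter through its morula libraries alone, so its call is a description only. CBLL1, coding for Hakai, the ubiquitin ligase that targets E-cadherin, fell from 161 ± 46.9 to 20.2 ± 5.75 FPKM (-2.92, limma adjusted p = 1.94e-05). CDH1 transcript and that of its ligase thus moved in opposite directions between these stages, and a link between them was not tested.

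Polarity genes outside the set divided between both directions, and their count depends on the scaling. Of 23 listed, 18 had a row and 14 were tested: 4 rose and 5 fell, with a median of -0.22 beside 0.35 for all genes. The split was 3 and 5 after rescaling to TPM, 3 and 6 under median-of-ratios scaling and 1 and 7 under quantile normalization. TIAM1, a Rac activator that binds PAR3, rose from 2.08 ± 0.225 to 18.0 ± 5.37 FPKM (n = 3 each), a log2 change of 2.59 (limma adjusted p = 2.15e-05). Among the 5 that fell were PATJ and LIN7C, of the Crumbs complex, and DLG1, of the Scribble module. LLGL2, a further Scribble module gene, and DLG5, a relative of DLG1, were among the 4 that rose, at 0.78 and 0.75 (limma adjusted p = 0.00736 and 0.0217), and were named after their values were seen. LLGL2 lost its call under quantile normalization and DLG5 under all 3 other scalings. LLGL2 was below 1 FPKM in every 8-cell library and met the filter through its morula libraries alone. PATJ went from 5.55 ± 2.09 to 1.92 ± 0.655 FPKM (-1.14, limma adjusted p = 0.00569). LIN7C went from 61.6 ± 7.12 to 29.5 ± 7.02 FPKM (-1.06, limma adjusted p = 0.00171), and DLG1 from 17.6 ± 5.87 to 7.68 ± 0.440 (-1.05, limma adjusted p = 0.00512).

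Apical cortex genes split, with 3 risers and 2 fallers of 8 tested and 12 listed, or 3 and 4 under each of the other 3 scalings. SLC9A3R1, coding for the scaffold NHERF1 that binds ezrin, rose from 1.48 ± 0.666 to 28.0 ± 6.80 FPKM (n = 3 each), a log2 change of 3.56 (limma adjusted p = 6.94e-06). NF2, coding for the ezrin relative merlin, rose from 1.34 ± 0.866 to 6.48 ± 1.09 FPKM (1.74, limma adjusted p = 0.000819). STK10, a kinase that activates ezrin-family proteins, fell from 2.17 ± 1.10 to 0.143 ± 0.0635 FPKM (-1.41, limma adjusted p = 0.000869). STK10 met the filter through its 8-cell libraries alone and was low in both groups, so its call is a description only. By these values transcripts for NHERF1 and merlin rose while those for ezrin and, within that limit, STK10 fell. SLK, another kinase of the list, was at 12.06 ± 1.36 FPKM in 8-cell embryos and 17.35 ± 1.36 in control morulae. Its control values lay above without overlap, though it was not called higher. SLK was named after its values were seen.

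Actomyosin genes, which power the contraction of compaction, gave 4 risers and 4 fallers of 12 tested and 15 listed, or 3 and 5 under median-of-ratios scaling and quantile normalization. The myosin light chains MYL12B and MYL6 rose, from 17.8 ± 3.91 to 163 ± 20.5 FPKM and from 319 ± 80.2 to 2371 ± 332 (n = 3 each). Their log2 fold changes were 3.14 and 2.91 (limma adjusted p = 2.76e-06 and 4.17e-06). MYH9, a non-muscle myosin heavy chain, rose from 1.83 ± 1.20 to 5.86 ± 1.92 FPKM (1.34, limma adjusted p = 0.00890). RHOA, the GTPase that switches contraction on, fell from 653 ± 135 to 232 ± 75.4 FPKM (-1.51, limma adjusted p = 0.000475).

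Between KDM6A and control morulae none of the 15 junction, 15 polarity, 7 apical cortex and 12 actomyosin genes tested was called in either direction. Their median log2 differences were -0.053, -0.098, -0.012 and 0.10, beside -0.012 for all genes. Only 0.164% of the 9777 genes tested were called in this contrast, so the absence of calls in these lists is near that share. Against 8-cell embryos, KDM6A morulae had 6 junction genes higher and 3 lower of 16 tested, 2 and 4 of 14 polarity genes, 3 and 3 of 8 apical cortex genes and 3 and 2 of 11 actomyosin genes. Over all 10024 genes tested in that contrast, 66.7% were called, 41.1% higher and 25.6% lower. Nothing particular to a list is therefore read from these counts. Under all 3 other scalings the junction split became 6 and 4 and the actomyosin split 3 and 3. The polarity split became 2 and 5 after rescaling to TPM, 2 and 6 under median-of-ratios scaling and 1 and 6 under quantile normalization.

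**Figure D4:**
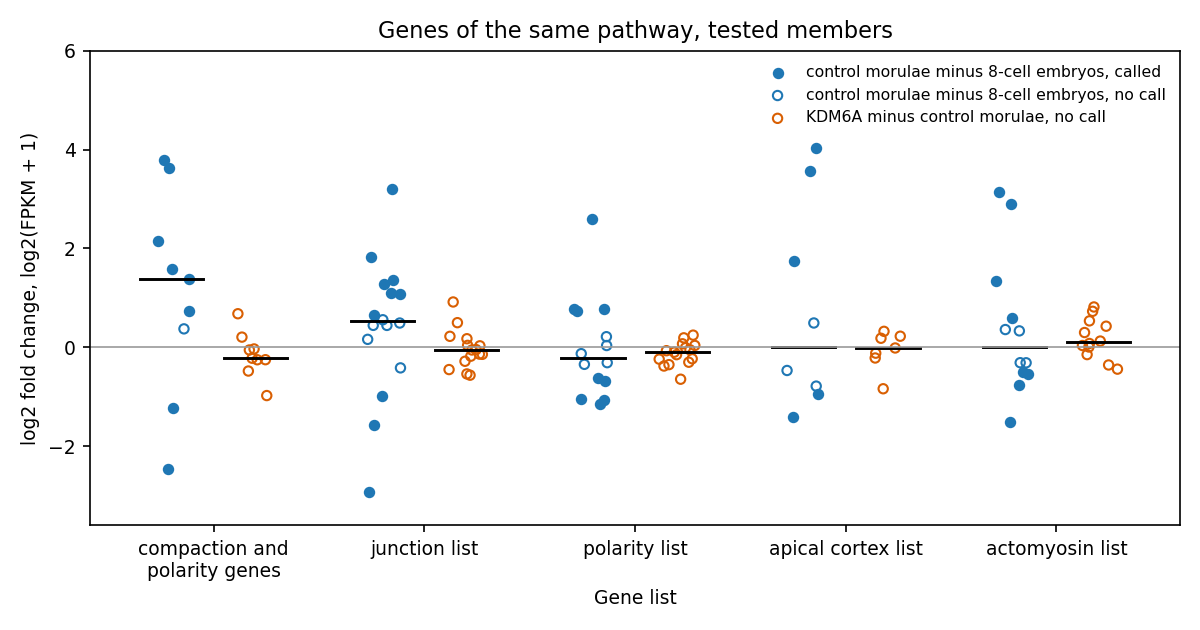
Log2 fold changes on the log2(FPKM + 1) scale for the 10-gene set and the junction, polarity, apical cortex and actomyosin lists, with 1 dot per gene tested, filled where called, and a black bar at each list's median. Control morulae minus 8-cell embryos (blue) spread to both sides of 0 in every list, and no dot is filled for KDM6A minus control morulae (orange).

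Genes with a pattern most like CDH1 and PRKCI over the 9 libraries were found by the mean absolute difference of centred log2(FPKM + 1) among 9586 genes. Closest to CDH1 were PNRC2 (0.11), GANAB (0.12), STK38 (0.14), C27H8orf48 (0.14) and RAD52 (0.15), a difference given in log2 units. PNRC2, a nuclear receptor coactivator, was at 4.27 ± 1.69, 13.96 ± 2.61 and 21.6 ± 2.57 FPKM in 8-cell embryos, control morulae and KDM6A morulae (n = 3 each). It thus shares the stepwise order that CDH1 has. Closest to PRKCI were RAB11FIP4 (0.15), LCAT (0.17), PGPEP1L (0.19) and AMOTL2 (0.22). AMOTL2, an angiomotin family protein of cell junctions, was listed at 0 in all 3 8-cell libraries and at 9.57 ± 1.75 and 6.44 ± 1.10 FPKM in control and KDM6A morulae. Likeness chosen over these same libraries is a description only.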

How the data were processed

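The authors deposited FPKM per gene and library, per the file headers, to 2 decimals. The build was UMD3.1 and the tools were RSEM 1.2.12, Bowtie2 2.2.5, HISAT 0.1.6, StringTie 1.0.4 and bcl2fastq 2.16, per the submitters' processing notes. Their roles, and the counting of reads mapping to several places, remain not given in the sources used here. Files were joined by gene identifier (16713 genes in morula files, 16674 in 8-cell files). In control morula replicate 1, 3038 rows without an annotated identifier were left out. Depth is unknown because low values show no whole-read steps: between libraries (36 pairs), ratios of values of 0.15 to below 1 FPKM had 4.26% to 7.53% of genes in the commonest log2 bin, 0.1 wide. Summed FPKM of the rows used ran from 820346 to 860798 in 8-cell libraries and from 913646 to 989916 in morula libraries. No pair of libraries was identical.

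Only the 6 libraries compared entered each fit, made with limma 3.58.1 (trended prior, R 4.3.3) on log2(FPKM + 1), for genes at 1 FPKM or more in at least 3 of 6, with Benjamini-Hochberg adjustment over all genes and a threshold of 0.05. A fold change on this scale understates low genes, and "-fold" is a ratio of mean FPKM. Shares and ratios used exact two-sided permutation tests (Python 3.11.15, scipy 1.17.1). The fits were tried on simulated data with independent libraries, normal noise and changes added to better expressed genes only. That trial does not cover genes near 0 or technical replicates. The members, lists and alternatives were chosen with earlier results of these data known. The text names the 10 members, their paralogs, every list gene called between morula groups, the 4 genes per list with the smallest p between control morulae and 8-cell embryos, and the 5 genes most like CDH1 and most like the member of widest range, of which 1 is not reported here. PARD3B, CRB3, CDC42, SLC9A3R2 and FSHR matched no row, RAC1 and MYL9 matched several rows and MYL12A conflicting ones, so none was used. CRB1 and LRRC7 were matched in 8-cell files only and entered no comparison.

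Other settings tried were quantile normalization, TPM and median-of-ratios scaling, a pseudocount of 0.1, a filter at 5 FPKM or none, 1 fit of all 9 libraries, a block for the replicate number, and fits lacking 1 replicate each on an unaltered set of genes.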

Additional observations from a re-analysis of the deposited data

How the results depend on the processing

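Of the fold changes of the members under the alternatives, 366 kept their direction and their side of the threshold, 4 newly passed it, 1 no longer passed and 6 reversed sign. The 6 reversals were all between the morula groups and far from the threshold: CTNND1 at 0.0053 after rescaling to TPM and 0.11 without control replicate 2, PARD3 at 0.028 after rescaling to TPM and 0.13 and 0.018 without control replicates 2 and 3, and EZR at 0.040 without control replicate 1. With a replicate left out, CTNND1 ran from -0.18 to 0.11, PARD3 from -0.24 to 0.13 and EZR from -0.42 to 0.040. The count of members called between the morula groups ran from 0 to 1 in each direction over the replicates left out, the 1 in each being CDH1 and PRKCI without KDM6A replicate 1. In that comparison the shares that reversed with a replicate left out ran from -1.37 to 11.4 percentage points for PARD6B, -7.44 to 0.407 for EZR, -1.13 to 4.72 for CTNNA1, -2.95 to 1.50 for CTNNB1 and -2.85 to 1.72 for SCRIB. CTNND1 over CDH1 ran from -0.24 to 0.25 log2 units between control morulae and 8-cell embryos. The causes were not tested. Over all genes, the 16 calls between the morula groups became 25 after rescaling to TPM, 28 under quantile normalization, 11 at a filter of 5 FPKM, 10 in 1 fit of all libraries, 0 with no filter (1244 had an unadjusted p under 0.05 with the filter) and 1 to 745 with a replicate left out. Same-numbered libraries did not deviate together (r from -0.24 to 0.16), and with the replicate number as a block the member counts were still 0 and 0, 6 and 2, and 5 and 2, while all-gene calls between the morula groups went from 16 to 1. A filter of 5 FPKM left PARD6B untested between the morula groups, and SCRIB had a value only with no filter. Unknown depth limits PRKCZ in 8-cell embryos, PARD6B in morulae and SCRIB throughout.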
